A study of Mus musculus with 16 samples.

Results

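The genes described here encode the secreted R-spondins and the membrane proteins they act on: 4 ligand genes (Rspo1, Rspo2, Rspo3 and Rspo4), 2 receptor genes (Lgr4 and Lgr6) and 1 ligase gene (Znrf3). They were taken as every probe set whose only gene symbol in the platform's probe table is a gene of this group, which gave 10 of the 45037 non-control probe sets. Rspo3, Lgr4 and Znrf3 had 2 probe sets each and the other genes 1. The samples were colon fibroblasts of 4 C57BL/6 mice carrying Gli1CreERT2-ZsGreen, in which Cre made under the Gli1 promoter is switched on by tamoxifen and marks cells with the green protein ZsGreen. Each mouse received 1 mg tamoxifen into the peritoneum on 5 days, and its colon was taken on day 6 (another label gives 5 days after tamoxifen). Cells negative for Epcam, CD45 and CD31 and positive for gp38 were divided by ZsGreen brightness and by Sca1, a protein of the cell surface, into Sca1+ ZsGreen-high, Sca1+ ZsGreen-dim, Sca1+ ZsGreen-negative and Sca1- ZsGreen-negative cells, the last called Sca1- cells here. Each population of each mouse was measured on 1 array, 16 arrays in all, so that all populations come from tamoxifen-treated mice with the same alleles. Reporter brightness records Cre activity since the injections and need not follow Gli1 at the time of the sort.

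R-spondins are secreted proteins that strengthen Wnt signalling. In the absence of R-spondin, the membrane ligases ZNRF3 and RNF43 mark Frizzled receptors for removal from the cell surface. R-spondin bound to LGR4, LGR5 or LGR6 draws the ligase away from the surface, so Frizzled accumulates and the cell responds more strongly to Wnt. In the colon, R-spondins made by stromal cells, RSPO3 among them, maintain the stem cells at the crypt base.

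Promoters are shown for Rspo1 and Lgr4, the genes of this group that differed between ZsGreen-high and Sca1+ ZsGreen-negative cells. Each is the window of the RefSeq promoter table on GRCm38.p6, from 250 bases before to 50 bases after the start that table uses, on the + strand. For Rspo1 that start lies inside the RefSeq gene span, which begins at 124986401, and for Lgr4 it is the beginning of the span. They lie at chr4:124986180-124986479 for Rspo1 and at chr2:109917397-109917696 for Lgr4.
Rspo1: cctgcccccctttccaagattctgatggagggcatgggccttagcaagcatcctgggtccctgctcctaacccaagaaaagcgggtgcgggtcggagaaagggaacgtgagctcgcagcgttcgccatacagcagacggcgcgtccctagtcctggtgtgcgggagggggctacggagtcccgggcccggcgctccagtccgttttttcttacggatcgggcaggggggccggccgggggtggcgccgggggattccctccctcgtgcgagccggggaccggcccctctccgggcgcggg
Lgr4: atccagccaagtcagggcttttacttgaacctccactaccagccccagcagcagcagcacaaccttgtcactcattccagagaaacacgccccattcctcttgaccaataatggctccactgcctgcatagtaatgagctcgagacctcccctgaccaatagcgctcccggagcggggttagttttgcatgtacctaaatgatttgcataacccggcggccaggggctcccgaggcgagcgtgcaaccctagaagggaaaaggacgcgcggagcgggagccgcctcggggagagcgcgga
The Rspo1 window holds 69.0% G and C and the Lgr4 window 58.3%. Of the 7 genes, 4 have an entry in the promoter table (Rspo1, Rspo4, Lgr4 and Lgr6). On both strands of these 4 windows there was no match to the GLI site GACCACCCA, to its core CCACCCA, which lies within it, or to the TCF/LEF letters CTTTGA and CTTTGT. Of 32851 promoters of the same length, 0.253%, 9.3%, 16% and 18.7% hold these letters in the same order. No capitals are marked in the printed windows because no match was found.

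The deposited scores were turned back into whole-number signals, and how these were corrected for background is not known. Nonspecific control probe sets had a median of 123 to 136 per array, so a dim probe set may show less than its true difference. A probe set is called at array background in a population when it lay at or below the highest of 23 nonspecific control probe sets on all 4 arrays. That control read 234 to 327 on ZsGreen-high, 292 to 396 on ZsGreen-dim, 335 to 488 on Sca1+ ZsGreen-negative and 329 to 417 on Sca1- arrays. Array medians were 662 to 687, and the number of arrays limits the precision. The 3' to 5' ratio of Actb, a measure of RNA length, was 1.24 ± 0.03 (SD, n = 4) in ZsGreen-high, 1.16 ± 0.07 in ZsGreen-dim, 1.11 ± 0.01 in Sca1+ ZsGreen-negative and 1.11 ± 0.05 in Sca1- arrays, and its part in the results was not tested. Scaling to hybridization controls, one of the alternatives, moves most probe sets upward together in ZsGreen-high cells: the median log2 difference of all probe sets becomes 0.39 against Sca1+ ZsGreen-negative cells and 0.43 against Sca1- cells, so values under it are also given relative to that median. The arrays of mouse 2 did not match one another: Xist, the RNA that silences an X chromosome, read 487 and 424 in its ZsGreen-high and ZsGreen-dim arrays, and 18116 and 19209 in its Sca1+ and Sca1- ZsGreen-negative arrays. Eif2s3y, a gene of the Y chromosome, read 3111 and 3095 in the first pair, and 146 and 197 in the other. Results are therefore also given without mouse 2, and counts of mice take the labels as given. Fits that block on mouse treat both pairs as the same animal, so their calls carry the same doubt. All arrays of mouse 1 read low Xist (466 to 671) and high Eif2s3y (2901 to 3059), and those of mice 3 and 4 the reverse. Low Xist was thus read in mice 1 and 2 for ZsGreen-high and ZsGreen-dim cells, and in mouse 1 alone for the ZsGreen-negative populations. By these genes the sexes were not balanced across the populations, and the part of sex in the results was not tested. Sca1- arrays had the highest list means for interstitial cells of Cajal, pericytes, and enteric glia and neurons. The Cajal list had a mean log2 signal of 12.5 ± 0.25 (SD, n = 4) there. It was 10.5 ± 0.17 in ZsGreen-high, 10.8 ± 0.22 in ZsGreen-dim and 11.2 ± 0.18 in Sca1+ ZsGreen-negative arrays. The part of these cell types in differences from Sca1- cells was not tested. In sorted bulk samples, fewer cells of a type and less RNA per cell cannot be told apart.

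Among the ligands, Rspo1 was the only 1 of the 4 genes to pass the threshold within the Sca1+ cells. RSPO1 is known as a gut growth factor when given to mice and for its role in ovary development. Its probe set, 1449319_PM_at, read 180, 180, 205 and 174 in ZsGreen-high cells of mice 1 to 4, 183, 180, 174 and 180 in ZsGreen-dim cells, 232, 254, 305 and 271 in Sca1+ ZsGreen-negative cells and 183, 178, 179 and 187 in Sca1- cells. Every Sca1+ ZsGreen-negative array lay above every array of the other 3 populations, which overlapped one another. The means were 185 ± 13.8 (SD, n = 4), 179 ± 3.8, 266 ± 30.8 and 182 ± 4.1 in the same order of populations. All 16 values were nevertheless at array background, so they give no fold of the transcript. On this dim scale the log2 signal differed by -0.52 ± 0.08 (SE) between ZsGreen-high and Sca1+ ZsGreen-negative cells, lower in all 4 mice (limma, adjusted p = 0.000435), and by -0.56 ± 0.08 between ZsGreen-dim and Sca1+ ZsGreen-negative cells, lower in all 4 mice (adjusted p = 0.00452). Sca1+ ZsGreen-negative cells exceeded Sca1- ZsGreen-negative cells by 0.54 ± 0.08, in all 4 mice (limma, adjusted p = 0.00110). The other 3 populations did not differ from each other past the threshold, with limma adjusted p from 0.868 to 0.911. Without mouse 2 the 3 called differences were -0.53, -0.58 and 0.55 (limma, adjusted p = 0.0151, 0.155 and 0.0347), and without mouse 4 the ZsGreen-dim difference, -0.55, was not called either (adjusted p = 0.130). Scaled to hybridization controls the ZsGreen-high difference was -0.14 (limma, adjusted p = 0.325), or -0.53 relative to the median of all probe sets, and with the mean of the colon epithelium genes as a covariate it was -0.36 (adjusted p = 0.532).

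Rspo2, whose protein is needed for limb and lung development in mice, was at array background in every population. Probe set 1455893_PM_at read 154, 143, 164 and 147 in ZsGreen-high, 155, 156, 152 and 167 in ZsGreen-dim, 146, 157, 158 and 175 in Sca1+ ZsGreen-negative and 156, 148, 151 and 151 in Sca1- cells. All 4 populations overlapped, and the moderated F test over them gave an adjusted p of 0.766 (limma).

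Rspo3 was read by 2 probe sets, both above the highest control on most arrays. RSPO3 is the R-spondin made by stromal cells next to intestinal crypts. Probe set 1455607_PM_at read 790, 631, 419 and 575 in ZsGreen-high cells, 662, 493, 441 and 555 in ZsGreen-dim cells, 577, 446, 578 and 463 in Sca1+ ZsGreen-negative cells and 622, 360, 409 and 320 in Sca1- cells, above the control on 13 of 16 arrays. Its means were 604 ± 153 (SD, n = 4), 538 ± 95.04, 516 ± 71.4 and 428 ± 135 in the same order, with all 4 populations overlapping and no neighbours in this order past the threshold. The log2 difference between ZsGreen-high and Sca1- cells was 0.51 ± 0.21, higher in all 4 mice, and did not pass (limma, adjusted p = 0.0798). With mouse as a block the same difference passed (limma, adjusted p = 0.0182), but that fit pairs arrays of mouse 2 that did not match. The difference also passed without mouse 1 (0.56, adjusted p = 0.0194), without the Sca1- array of mouse 1 (0.70, 0.00869) and without the ZsGreen-high array of mouse 3 (0.67, 0.0221), all by limma. ZsGreen-dim against Sca1- cells passed without the Sca1- array of mouse 1 (0.56, limma, adjusted p = 0.0499) and was 0.36 ± 0.21 with it (0.302). Without mouse 2 the ZsGreen-high difference was 0.41 (limma, adjusted p = 0.347), and with the epithelium covariate -0.42 (adjusted p = 0.613). Probe set 1443187_PM_at read 481, 438, 491 and 470 in ZsGreen-high, 439, 460, 487 and 461 in ZsGreen-dim, 457, 507, 510 and 500 in Sca1+ ZsGreen-negative and 454, 447, 404 and 457 in Sca1- cells. It passed in no comparison (limma F test, adjusted p = 0.245) and did not follow the other Rspo3 probe set across the 16 arrays (Pearson r = 0.04, Spearman rho = -0.05), so the gene has no agreed pattern here.

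Rspo4, whose loss in people leaves the nails unformed, was lower in ZsGreen-high than in Sca1- cells. Probe set 1453711_PM_at read 368, 392, 425 and 437 in ZsGreen-high cells, 468, 479, 426 and 400 in ZsGreen-dim cells, 432, 452, 396 and 400 in Sca1+ ZsGreen-negative cells and 493, 491, 445 and 499 in Sca1- cells, above the highest control on 14 of 16 arrays. All 4 ZsGreen-high arrays lay below all 4 Sca1- arrays, and each other neighbouring pair of populations overlapped. The log2 difference was -0.25 ± 0.08 between ZsGreen-high and Sca1- cells, lower in all 4 mice (limma, adjusted p = 0.0217), and it was 0.18 when arrays were scaled to hybridization controls (adjusted p = 0.181), which is -0.24 relative to the median of all probe sets under that scaling. It was -0.23 without mouse 2 and -0.19 without mouse 1 (limma, adjusted p = 0.117 and 0.139), and was not called without the ZsGreen-high array of mouse 1 or 2 (-0.21 and -0.24) or the Sca1- array of mouse 2 or 4 (-0.24 and -0.23). With the epithelium covariate the difference between ZsGreen-high and Sca1- cells was -0.25 (limma, adjusted p = 0.546). The F test over the 4 populations did not call Rspo4 (limma, adjusted p = 0.0872). Between Sca1+ and Sca1- ZsGreen-negative cells the difference was -0.20 ± 0.08 (limma, adjusted p = 0.281). Over the 16 arrays Rspo4 followed the lists of interstitial cells of Cajal (Pearson r = 0.62) and enteric glia and neurons (0.63), and ran opposite to that of PDGFRA-high subepithelial fibroblasts (-0.64). The part of these lists was not tested.

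**Figure D1:**
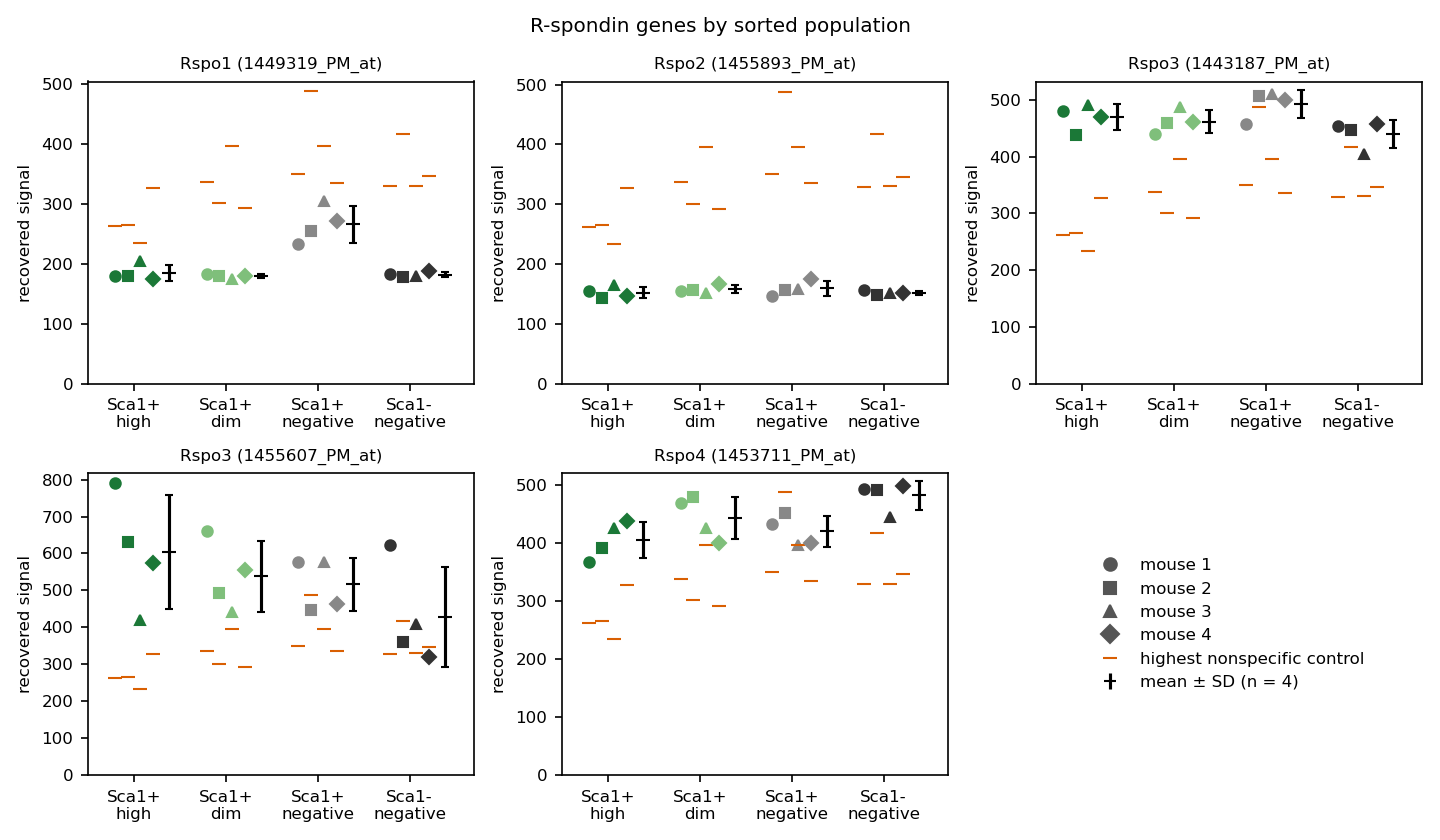
Recovered signal of the 5 R-spondin probe sets (vertical axis, linear, from 0) in the 4 sorted populations, with 1 point per array, a marker shape for each mouse and the mean ± SD of 4 arrays at the right of each population. Orange dashes give the highest nonspecific control of each array: every Rspo1 and Rspo2 point lies below its dash, and Rspo1 is highest in the 4 Sca1+ ZsGreen-negative arrays (232 to 305).

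The log2 difference between 2 R-spondin probe sets within each array was compared between ZsGreen-high and Sca1+ ZsGreen-negative cells for 6 pairs, with the brighter Rspo3 probe set. The difference was -0.45 for Rspo1 over Rspo2 and -0.47 for Rspo1 over Rspo4 (exact two-sided permutation p = 0.0286 each, adjusted over the 6 pairs 0.0857), and -0.72 for Rspo1 over Rspo3 (exact permutation p = 0.0571, adjusted 0.114). The pairs without Rspo1 had exact permutation p from 0.343 to 0.914. The design has little room: 0.0286 is the smallest p that 4 against 4 arrays allow, so no pair can pass after adjustment unless at least 4 of them reach it, and the test does not use that each mouse gave both arrays. Pairs with Rspo1 or Rspo2 also rest on signals at array background, so whether the R-spondins changed unequally was not settled.

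Of the receptor genes, Lgr4 carried the largest differences of the group. LGR4 is the R-spondin receptor found widely in epithelia, including crypt cells of the gut, and also outside them. Probe set 1433891_PM_at read 854, 1016, 2002 and 1349 in ZsGreen-high cells, 1811, 2231, 3099 and 3337 in ZsGreen-dim cells, 3466, 3901, 5005 and 5225 in Sca1+ ZsGreen-negative cells and 3009, 4786, 6257 and 7268 in Sca1- cells. ZsGreen-high arrays lay below all ZsGreen-negative arrays of either kind and ZsGreen-dim arrays below all Sca1+ ZsGreen-negative ones, while ZsGreen-high overlapped ZsGreen-dim through mouse 3, and the Sca1+ and Sca1- ZsGreen-negative cells overlapped. Mouse 1 had the lowest value in each of the 4 populations. In each population the arrays with low Xist read below the others: mice 1 and 2 in ZsGreen-high and ZsGreen-dim cells, and mouse 1 in the ZsGreen-negative populations. The part of sex in the Lgr4 differences was not tested. The means were 1305 ± 508 (SD, n = 4), 2620 ± 719, 4399 ± 850 and 5330 ± 1853 in the same order. Lgr4 differed by -1.81 ± 0.29 on the log2 scale between ZsGreen-high and Sca1+ ZsGreen-negative cells (limma, adjusted p = 0.000708) and differed by -2.03 ± 0.29 between ZsGreen-high and Sca1- cells (adjusted p = 0.000144), in each case lower in all 4 mice. Without mouse 2 these were -1.77 and -1.96 (limma, adjusted p = 0.0215 and 0.00753), and scaled to hybridization controls they were -1.43 and -1.60, both still called. ZsGreen-dim and Sca1- cells differed by -0.99 ± 0.29, lower in all 4 mice (limma, adjusted p = 0.0410). This last call was lost with hybridization scaling (-0.87, adjusted p = 0.0681), with the epithelium covariate (-0.57, 0.0901), without mouse 2, 3 or 4 (-0.96, -0.99 and -0.95, adjusted p = 0.230, 0.0916 and 0.158), without the ZsGreen-dim array of mouse 1 or 2 (-0.83 and -0.93), the Sca1- array of mouse 2, 3 or 4 (-1.02, -0.89 and -0.82), the ZsGreen-high array of mouse 4 or the Sca1+ ZsGreen-negative array of mouse 2 (both -0.99). Neighbours in the order of levels did not pass: -1.04 ± 0.29 for ZsGreen-high against ZsGreen-dim (limma, adjusted p = 0.107), -0.77 ± 0.29 for ZsGreen-dim against Sca1+ ZsGreen-negative (0.172), both lower in all 4 mice, and -0.22 ± 0.29 for Sca1+ against Sca1- ZsGreen-negative cells (0.878). With mouse as a block the first 2 of these passed (limma, adjusted p = 0.000550 and 0.00447). For ZsGreen-dim against Sca1+ ZsGreen-negative cells that fit pairs arrays of mouse 2 that did not match. ZsGreen-high against ZsGreen-dim also passed without the ZsGreen-high array of mouse 3 (-1.27, limma, adjusted p = 0.0395) or the Sca1- array of mouse 1 (-1.04, 0.0450).

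The other Lgr4 probe set, 1453765_PM_at, read 330, 302, 358 and 310 in ZsGreen-high, 357, 391, 340 and 346 in ZsGreen-dim, 359, 360, 367 and 300 in Sca1+ ZsGreen-negative and 330, 396, 350 and 387 in Sca1- cells. It lay above the highest control on 10 of 16 arrays, all 4 populations overlapped, and it passed in no comparison (limma F test, adjusted p = 0.411). Its Pearson r with 1433891_PM_at was 0.45 over the 16 arrays (rho = 0.42). The Lgr4 differences therefore rest on 1 of the gene's probe sets.

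Lgr6, whose protein marks stem cells of the hair follicle in mice, passed in no comparison. Probe set 1427028_PM_at read 809, 866, 814 and 842 in ZsGreen-high, 811, 975, 775 and 817 in ZsGreen-dim, 760, 808, 736 and 811 in Sca1+ ZsGreen-negative and 770, 846, 677 and 964 in Sca1- cells, above the highest control on all 16 arrays. All populations overlapped, and the log2 differences were at most 0.11 in size, each with an SE of 0.10 (limma F test, adjusted p = 0.779). Scaled to hybridization controls the 2 ZsGreen-high differences from ZsGreen-negative cells were 0.48, of which 0.09 and 0.05 lay above the median of all probe sets.

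Znrf3, which encodes a ligase that R-spondin and its receptor clear from the membrane, was lower in ZsGreen-dim than in Sca1- cells by 1 of its 2 probe sets. Probe set 1435608_PM_at read 1278, 1155, 1108 and 1142 in ZsGreen-high cells, 1130, 1048, 855 and 1113 in ZsGreen-dim cells, 1280, 1155, 1408 and 1133 in Sca1+ ZsGreen-negative cells and 1171, 1512, 1515 and 1475 in Sca1- cells. All ZsGreen-dim arrays lay below all Sca1- arrays and below all Sca1+ ZsGreen-negative arrays, and the other pairs of populations overlapped. The log2 difference from Sca1+ ZsGreen-negative cells was -0.27 ± 0.11 and did not pass (limma, adjusted p = 0.188). The log2 difference between ZsGreen-dim and Sca1- cells was -0.45 ± 0.11, lower in all 4 mice (limma, adjusted p = 0.0127), and it was -0.33 when scaled to hybridization controls (adjusted p = 0.148), or -0.44 relative to the median of all probe sets. Without mouse 2, 3 or 4 it was -0.43, -0.33 and -0.47 (limma, adjusted p = 0.132, 0.0852 and 0.0834). Between ZsGreen-high and Sca1- cells the difference was -0.27 ± 0.11 (limma, adjusted p = 0.0675), and it passed without mouse 1 (-0.40, 0.0138), without the Sca1- array of mouse 1 (-0.36, 0.0116) and without the ZsGreen-dim array of mouse 3 (-0.27, 0.0413). Probe set 1437646_PM_at read 1350, 1219, 1361 and 1518 in ZsGreen-high, 1338, 1456, 1289 and 1291 in ZsGreen-dim, 1236, 1338, 1531 and 1236 in Sca1+ ZsGreen-negative and 1361, 1569, 1519 and 1727 in Sca1- cells. Its ZsGreen-dim difference from Sca1- cells was -0.20 ± 0.09, lower in all 4 mice (limma, adjusted p = 0.184), and the 2 Znrf3 probe sets had a Pearson r of 0.61 (rho = 0.49) over the 16 arrays.

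**Figure D2:**
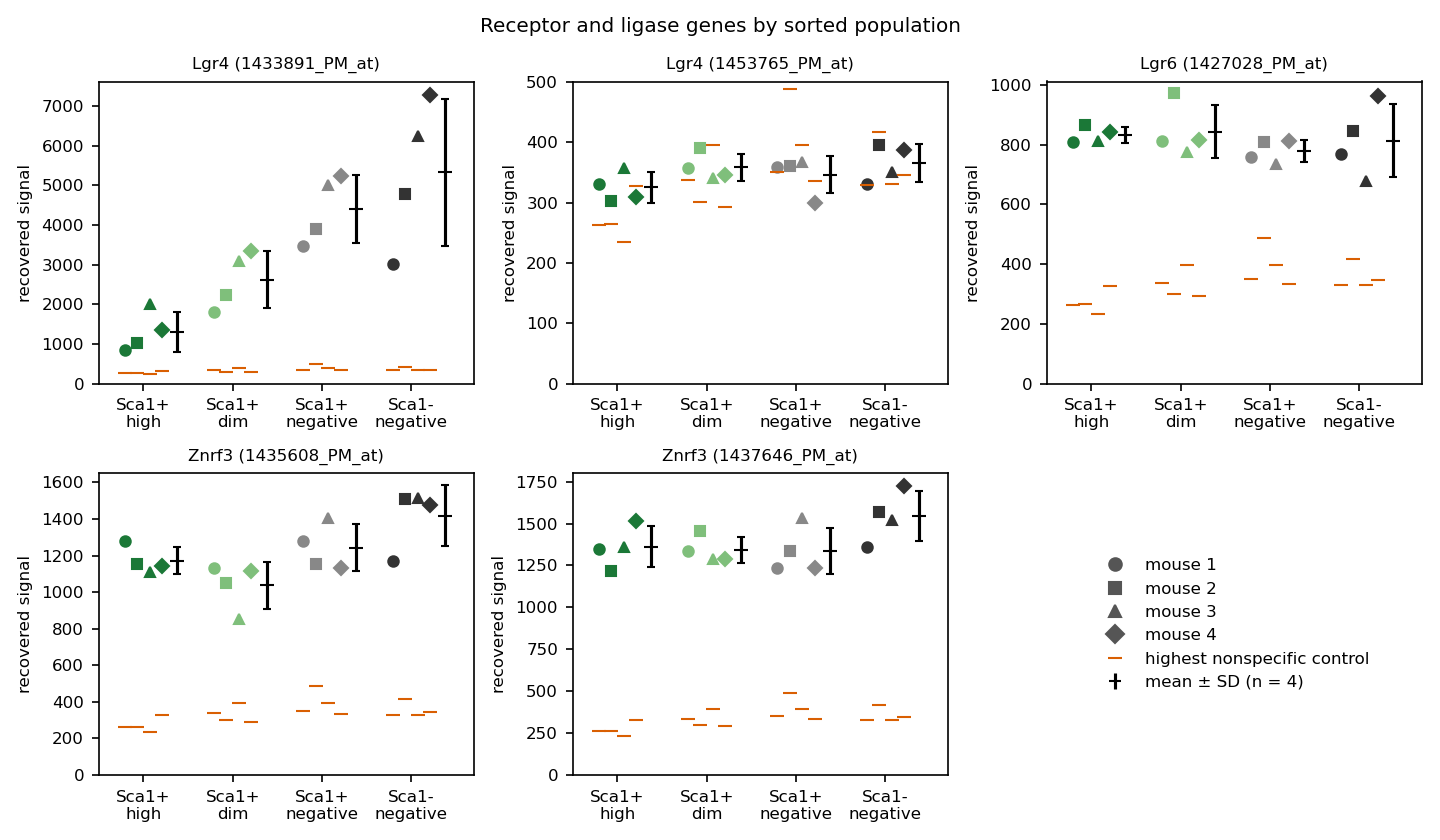
Recovered signal of the 5 receptor and ligase probe sets (vertical axis, linear, from 0) in the 4 sorted populations, drawn as for the R-spondins, with orange dashes for the highest nonspecific control of each array. Lgr4 1433891_PM_at averages 1305 in ZsGreen-high and 5330 in Sca1- cells, while the other 4 panels overlap between most populations.

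The 10 probe sets were set against the share of all probe sets called in each comparison. Between ZsGreen-high and Sca1+ ZsGreen-negative cells 0 of the 10 probe sets were higher and 2 lower (Rspo1 and Lgr4), where 15.2% of all probe sets were called higher and 11% lower. Between ZsGreen-high and Sca1- cells 0 were higher and 2 lower (Rspo4 and Lgr4), where 17.2% and 14% of all probe sets were called. Between ZsGreen-dim and Sca1- cells 0 were higher and 2 lower (Lgr4 and Znrf3), against 6.71% and 4.94% of all. Fewer calls were made elsewhere on the array. ZsGreen-dim against Sca1+ ZsGreen-negative cells had 0 higher and 1 lower (Rspo1), where 0.608% and 0.324% of all were called, and Sca1+ against Sca1- ZsGreen-negative cells had 1 higher (Rspo1) and 0 lower, where 1.03% and 1.28% were called. Between ZsGreen-high and ZsGreen-dim cells 0 of the 10 passed in either direction (1, Lgr4, at an unadjusted p under 0.05), where 0.298% and 0.46% of all passed. These counts are of 0 to 2 probe sets, and no test compared them with the shares of the array. The F test over the 4 populations called 3 of the 10 (Rspo1, Lgr4 and Znrf3 1435608_PM_at) and 27.8% of all probe sets. Comparisons that share a population share its 4 arrays and are not independent of one another. Without mouse 2 the calls were 2, 1, 0, 0, 1, 0 and 2 in the order of this paragraph.

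**Figure D3:**
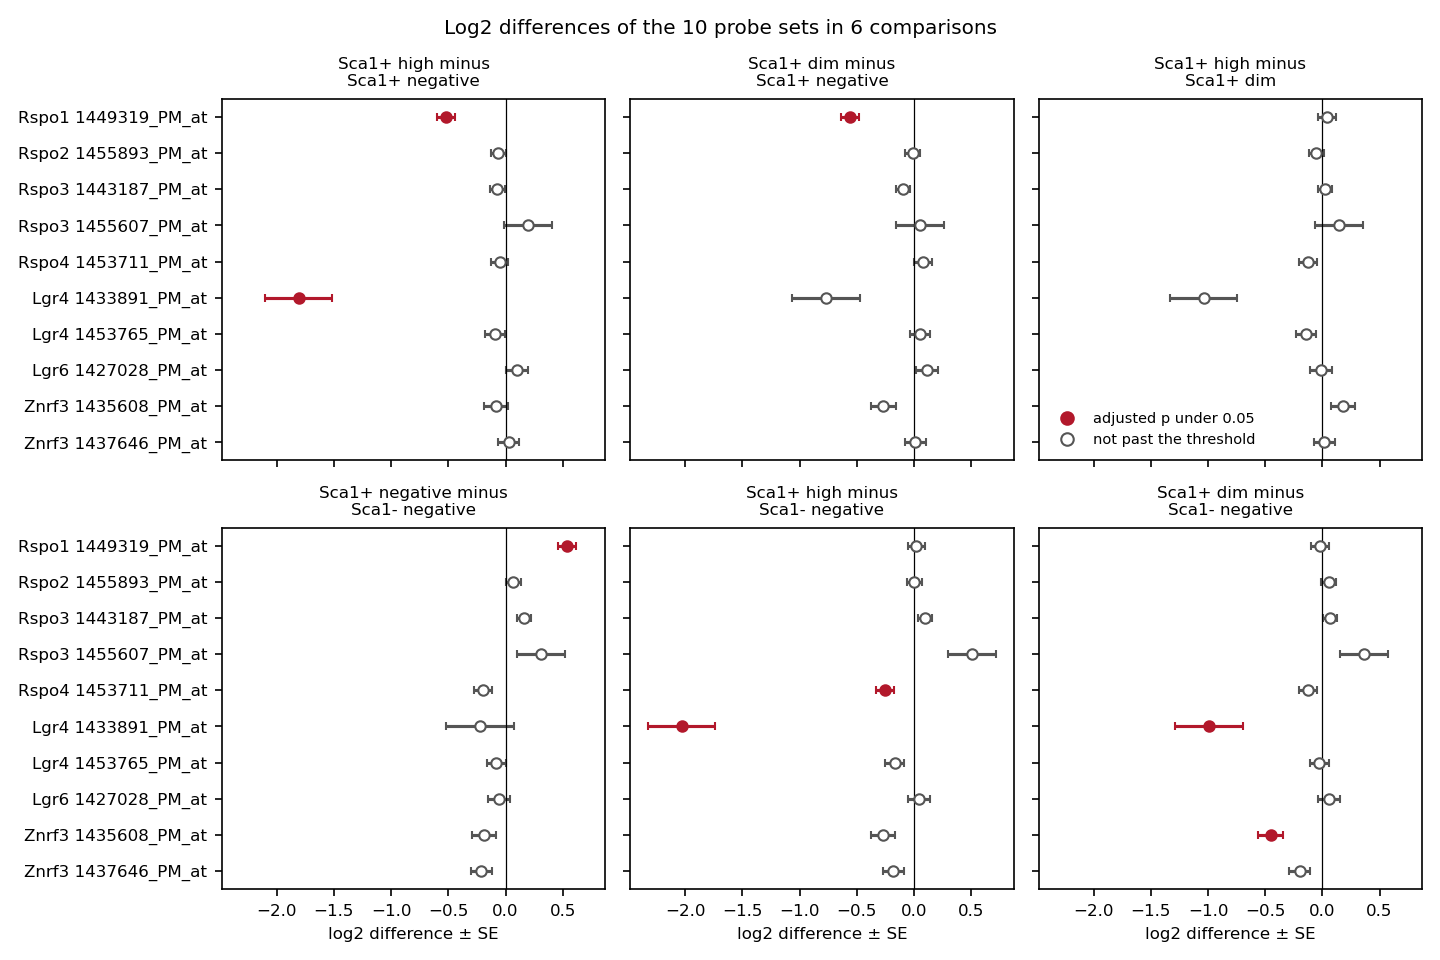
Log2 difference ± SE (horizontal axis) of the 10 probe sets (rows) in the 6 comparisons (panels), from limma on all 16 arrays, with filled red points past an adjusted p of 0.05. Lgr4 1433891_PM_at runs from -2.03 to -0.22, and the Rspo1 and Rspo2 points are differences of signals at array background.

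Markers of other cell types moved with Lgr4. The colon epithelium list, 17 measured genes such as Epcam and the cadherin Cdh1, had a mean log2 signal of 11.92 ± 0.94 (SD, n = 4) in ZsGreen-high, 13.62 ± 0.46 in ZsGreen-dim, 14.29 ± 0.25 in Sca1+ ZsGreen-negative and 14.27 ± 0.43 in Sca1- arrays, although Epcam-positive cells were gated out. The summed signal of the list was 45266 to 189765, 206569 to 358500, 318791 to 458204 and 282350 to 496190 in the same order, and 0 of its genes were at array background. All 17 were lower in ZsGreen-high than in Sca1+ ZsGreen-negative cells (median log2 difference -2.31, against 0.0093 over all probe sets) and than in Sca1- cells (-2.35, against -0.0063), and 15 in each comparison without mouse 2. With mouse 2 the shares of all probe sets called lower were 11% and 14%. Over the 16 arrays the log2 signal of Lgr4 followed the mean of this list with a Pearson r of 0.95 (rho = 0.93), a description of arrays that share mice and sorts. With the list mean as a covariate Lgr4 differed by -0.25 between ZsGreen-high and Sca1+ ZsGreen-negative cells and by -0.49 between ZsGreen-high and Sca1- cells (limma, adjusted p = 0.935 and 0.594), in a fit where the covariate and the populations move together and 4 and 516 of all probe sets are called. The part of epithelial RNA in the Lgr4 differences was not tested beyond these values. Lgr4 also followed the lists of mesothelium (r = 0.89), leukocytes (0.84) and interstitial cells of Cajal (0.76). It ran opposite to several lists: Wnt ligands (-0.88), secreted Wnt inhibitors (-0.86), CD34+ adventitial fibroblasts (-0.84), Wnt receptors (-0.84) and PDGFRA-high subepithelial fibroblasts (-0.775). The mesothelium list includes the keratin gene Krt7, whose population means stood in the same order as those of the epithelium list.

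Rspo1 moved with part of the mesothelium list. Of its 8 measured genes, 4 were lower in ZsGreen-high than in Sca1+ ZsGreen-negative cells (median of the list -0.31, against 0.0093 over all probe sets), 1 was lower in ZsGreen-dim than in Sca1+ ZsGreen-negative cells, and 1 was higher in Sca1+ than in Sca1- ZsGreen-negative cells. The shares of all probe sets called in these directions were 11%, 0.324% and 1.03%. Without mouse 2 the counts of the list were 2, 1 and 1. The gene called in all 3 was Wt1, a transcription factor of mesothelium and of other mesenchyme, which read 329 ± 39.8 (SD, n = 4) in ZsGreen-high, 286 ± 37.5 in ZsGreen-dim, 740 ± 191 in Sca1+ ZsGreen-negative and 342 ± 57.7 in Sca1- cells. Wt1 was at array background in ZsGreen-dim cells, where its level has only a bound. Of the defining markers, Msln, Bnc1 and Muc16 were at array background in every population, and Upk3b averaged 977, 943, 1184 and 1294 and passed in no comparison. The summed signal of the list was 3328 to 5307, 4046 to 6348, 6929 to 9909 and 5152 to 9731. These sums lean on the keratin gene Krt7, which averaged 950, 2198, 4732 and 4254 in the same order of populations. Krt7 had the highest mean of the list in all populations but ZsGreen-high. Its means stood in the same order as those of the colon epithelium list. Rspo1 had a Pearson r of 0.63 (rho = 0.49) with the mean of the list over the 16 arrays. The list's part in the Rspo1 differences was not tested.

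**Figure D4:**
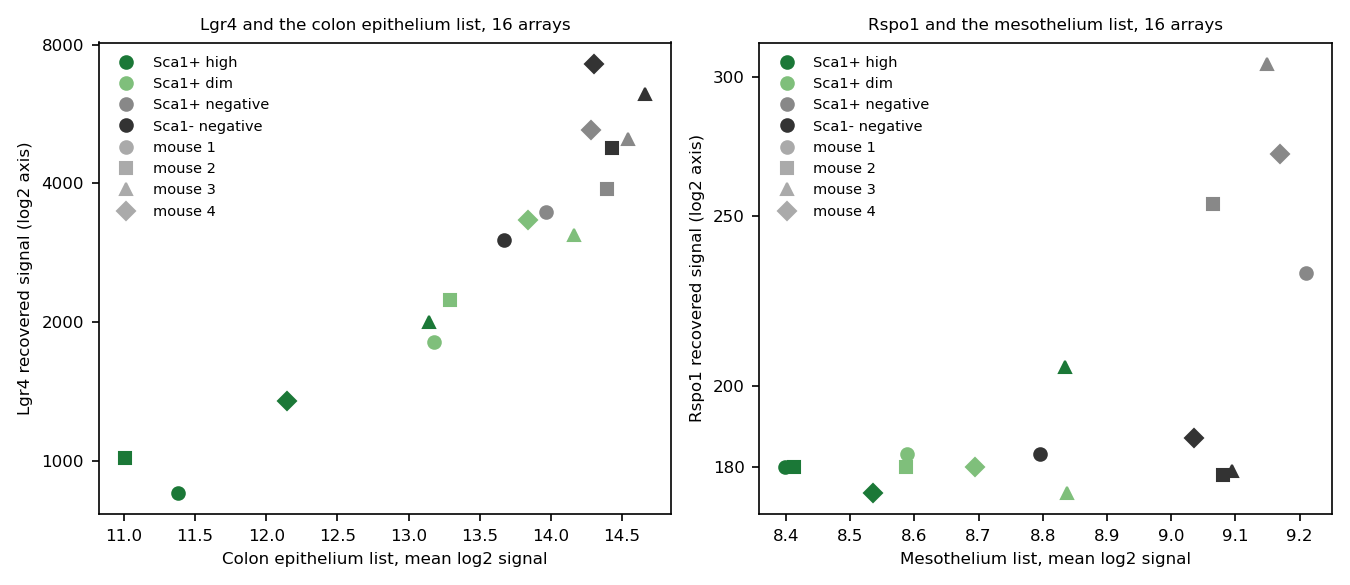
Log2 axes of recovered signal for Lgr4 1433891_PM_at against the mean log2 signal of the colon epithelium list (left) and for Rspo1 against that of the mesothelium list (right), 1 point per array, with colour for population and marker shape for mouse. Lgr4 rises with the list along the 16 arrays (r = 0.95), and Rspo1 is raised in the 4 Sca1+ ZsGreen-negative arrays alone, while Sca1- arrays with a similar list mean stay at 178 to 187.

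For each gene the 3 genes with the most similar log2 signal over the 16 arrays were taken from 15513 genes, each with 1 probe set. For Rspo1 these were the complement component C2 (r = 0.92, rho = 0.55), vitronectin, Vtn (r = 0.91, rho = 0.48), and Wt1 (r = 0.91, rho = 0.69). C2 averaged 513 in ZsGreen-high, 502 in ZsGreen-dim, 980 in Sca1+ ZsGreen-negative and 420 in Sca1- cells. It was chosen for its likeness to Rspo1 on these arrays, so the shared high population follows from the choice. For Lgr4 they were the ceramide synthase Cers6 (r = 0.99), the choline transporter-like gene Slc44a3 (0.98) and the inflammasome sensor Naip5 (0.98). Cers6 averaged 657, 1589, 3150 and 3648 in the same order of populations. The genes nearest to Rspo3 1455607_PM_at were Vps26b (r = 0.88), the enkephalin precursor Penk (0.87) and the Notch target Hes1 (0.85), and Penk averaged 10686, 8386, 7311 and 4443. Rspo4 was nearest to the transcription factor Hand1 (r = 0.89), Zfp296 (0.87) and the matrix protein Npnt (0.86). Znrf3 1437646_PM_at was nearest to Fam216b (0.83), the hormone Fgf21 (0.80) and Ilrun (0.80), Lgr6 to Tmem209 (0.87), Trnt1 (0.86) and Nrsn1 (0.81), and Rspo2 to Hcfc1r1 (0.81), Mast3 (0.79) and Klhl40 (0.77). The highest r among so many genes over 16 arrays is large by selection alone, and no test was made of these values. Rspo1 and Rspo2 were at array background on all 16 arrays. The probe sets of Rspo2, Rspo3, Lgr6 and Znrf3 used here passed in no comparison of the main fit.

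The other genes of receptor turnover, 7 measured of 8 listed, had a few calls in each direction, and no test compared them with the array. Between ZsGreen-high and Sca1+ ZsGreen-negative cells 1 was higher and 2 were lower (median log2 difference -0.03, against 0.0093 over all probe sets). Of all probe sets 15.2% were higher and 11% lower there. Between ZsGreen-high and Sca1- cells 2 were higher and 3 lower (median 0.11, against -0.0063), where 17.2% and 14% of all were called. Rnf43, the ligase gene related to Znrf3, read 226 ± 35.6 (SD, n = 4) in ZsGreen-high, 268 ± 66.7 in ZsGreen-dim, 464 ± 142 in Sca1+ ZsGreen-negative and 371 ± 99.0 in Sca1- cells. It was lower in ZsGreen-high than in Sca1+ ZsGreen-negative cells (log2 -1.0003 ± 0.24, limma, adjusted p = 0.00699) and than in Sca1- cells (-0.68 ± 0.24, 0.0423), and it was at array background in ZsGreen-dim cells. In ZsGreen-high cells it read 190 to 275, near the highest control of those arrays (234 to 327). These differences therefore give no fold of the transcript. Lgr5, the R-spondin receptor that marks crypt stem cells, averaged 430 ± 73.0, 452 ± 157, 448 ± 119 and 397 ± 40.9 in the same order and passed in no comparison (limma, adjusted p from 0.750 to 0.996). Sdc4, a heparan sulfate proteoglycan that binds R-spondin in frogs, was lower in ZsGreen-high than in Sca1+ ZsGreen-negative cells (-0.41 ± 0.09, limma, adjusted p = 0.00282) and than in Sca1- cells (-0.36 ± 0.09, 0.00492). The glypican gene Gpc4 was lower than in Sca1- cells in both ZsGreen-high (-0.58 ± 0.10, limma, adjusted p = 0.000446) and ZsGreen-dim cells (-0.61 ± 0.10, 0.00123). Of the Dishevelled genes, whose proteins link Frizzled to the ligases, Dvl1 was higher in ZsGreen-high than in Sca1+ ZsGreen-negative cells (0.33 ± 0.08, limma, adjusted p = 0.00841), Dvl2 was higher than in Sca1- cells in ZsGreen-high (0.28 ± 0.10, 0.0431) and ZsGreen-dim cells (0.40 ± 0.10, 0.0184), and Dvl3 passed in no comparison. With ZsGreen-dim against Sca1+ ZsGreen-negative cells, ZsGreen-high against ZsGreen-dim cells, and Sca1+ against Sca1- ZsGreen-negative cells, 0 of the 7 passed with limma. The shares of all probe sets there were 0.298% to 1.28% in each direction. Without mouse 2 the first count was 1 higher and 1 lower and the one against Sca1- cells 0 and 2, and with mouse as a block they were 2 and 3, and 3 and 3. Scaled to hybridization controls, where most of the array moves up, the first count was 3 higher and 1 lower.

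Wnt receptors include the targets of these ligases. Of 15 measured genes, 6 were higher and 1 lower in ZsGreen-high than in Sca1+ ZsGreen-negative cells (median log2 difference 0.20, against 0.0093 over all probe sets, of which 15.2% were called higher and 11% lower). Against Sca1- cells 8 were higher and 3 lower (0.29, against -0.0063, with 17.2% and 14% of all called), and no test compared the list with the array. The Frizzled gene Fzd2 was higher in ZsGreen-high than in Sca1+ ZsGreen-negative cells by 1.58 ± 0.25 on the log2 scale (limma, adjusted p = 0.000598) and Fzd1 by 1.02 ± 0.15 (0.000450). Fzd5 moved the other way, with a log2 difference of -2.05 ± 0.24 (limma, adjusted p = 0.000165), and it was also the 1 receptor gene called between ZsGreen-high and ZsGreen-dim cells (-1.22 ± 0.24, 0.0378). FZD5 is a main Frizzled of gut epithelium, and its means of 859, 1953, 3435 and 3839 in ZsGreen-high, ZsGreen-dim, Sca1+ and Sca1- ZsGreen-negative cells stood in the same order as those of Lgr4 and close to that of the epithelium list. ZsGreen-dim cells had 2 receptor genes higher and 0 lower than Sca1+ ZsGreen-negative cells, Fzd1 (0.86 ± 0.15) and the co-receptor Ryk (0.67 ± 0.15), and 4 higher and 1 lower than Sca1- cells. The shares of all probe sets were 0.608% higher and 0.324% lower in the first comparison, and 6.71% and 4.94% in the second. Between Sca1+ and Sca1- ZsGreen-negative cells Fzd4 alone passed (1.03 ± 0.25, limma, adjusted p = 0.0399), and 0 passed without mouse 2. Without mouse 2 the counts against Sca1+ ZsGreen-negative cells were 4 higher and 1 lower for ZsGreen-high and 0 and 0 for ZsGreen-dim cells, and with the epithelium covariate 0 and 0 for both.

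Among 19 measured Wnt ligands, which R-spondins need in order to act, 5 were higher and 0 lower in ZsGreen-high than in Sca1+ ZsGreen-negative cells, where 15.2% of all probe sets were higher and 11% lower, while the median difference was -0.02. Against Sca1- cells 6 were higher and 1 lower in ZsGreen-high cells (17.2% and 14% of all) and 5 and 1 in ZsGreen-dim cells (6.71% and 4.94% of all), with Wnt4 at 2.04 ± 0.17 and 1.79 ± 0.17 and Wnt5a at 1.95 ± 0.28 and 1.38 ± 0.28 (log2, limma, adjusted p up to 0.00496). Between Sca1+ and Sca1- ZsGreen-negative cells Wnt5a (1.15 ± 0.28) and Wnt4 (0.90 ± 0.17) were higher and 0 lower (1.03% and 1.28% of all). ZsGreen-dim cells had 4 ligands higher and 0 lower than Sca1+ ZsGreen-negative cells (0.608% and 0.324% of all). Between ZsGreen-high and ZsGreen-dim cells 0 passed with limma. Without mouse 2 ZsGreen-high cells had 4 higher and 0 lower than Sca1+ ZsGreen-negative cells, and Wnt4 and Wnt5a were not called between Sca1+ and Sca1- ZsGreen-negative cells. Scaled to hybridization controls, where most of the array moves up, 15 ligands were higher and 0 lower in ZsGreen-high than in Sca1+ ZsGreen-negative cells.

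Of 12 measured secreted Wnt inhibitors, 2 were higher and 1 lower in ZsGreen-high than in Sca1+ ZsGreen-negative cells (median 0.10). Of all probe sets 15.2% were higher and 11% lower there. Against Sca1- cells 4 inhibitors were higher and 2 lower (-0.08), where 17.2% and 14% of all were called. No test compared the list with the array. The Frizzled-related protein gene Sfrp2 was 2.71 ± 0.36 higher in ZsGreen-high and 2.65 ± 0.36 higher in ZsGreen-dim than in Sca1- cells, and 1.83 ± 0.36 higher in Sca1+ than in Sca1- ZsGreen-negative cells (log2, limma, adjusted p = 8.06e-05, 0.000366 and 0.0119). Sostdc1, a Wnt and BMP antagonist, ran the other way, with differences of -1.22 ± 0.16, -1.01 ± 0.16 and -0.91 ± 0.16 in the same comparisons. Of 13 measured canonical Wnt response genes, which include Lgr5 and Rnf43, 3 were higher and 1 lower in ZsGreen-high than in Sca1+ ZsGreen-negative cells (median -0.02) and 4 and 3 than in Sca1- cells (-0.09). The shares of all probe sets are those given for the inhibitors, and no test compared this list with them. Apcdd1, a Wnt inhibitor switched on by Wnt, was higher in ZsGreen-high than in Sca1+ ZsGreen-negative cells (1.01 ± 0.19, limma, adjusted p = 0.00171). Axin2, the most used readout of canonical Wnt signalling, averaged 1396 ± 102 (SD, n = 4) in ZsGreen-high, 1354 ± 141 in ZsGreen-dim, 1695 ± 217 in Sca1+ ZsGreen-negative and 1810 ± 318 in Sca1- cells. It differed by -0.27 ± 0.12 between ZsGreen-high and Sca1+ ZsGreen-negative cells (limma, adjusted p = 0.116) and was lower than in Sca1- cells in ZsGreen-high (-0.36 ± 0.12, 0.0342) and ZsGreen-dim cells (-0.41 ± 0.12, 0.0411). Axin2 was chosen after its values were seen. Myc was higher in Sca1+ than in Sca1- ZsGreen-negative cells (1.47 ± 0.16, limma, adjusted p = 0.000148), and the Wnt feedback inhibitor Nkd2 lower (-1.17 ± 0.22, 0.00776).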

How the data were processed

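RNA of 4 sorted colon fibroblast populations of 4 mice was amplified from 2 ng and hybridized to 16 Affymetrix arrays, per the labels' protocols. The submitters' processing notes name Affymetrix Expression Console 1.1. How probes were summarised, background-corrected and normalized is not given in the sources used. The deposited values are a score, standardized by the authors to mean 0 and SD 1 over the 16 arrays for each of 45141 probe sets, so a score carries no level. Whole-number signals that give these scores on a log scale were searched for with Python 3.11.15 (numba 0.67.0, numpy 2.4.6, pandas 2.3.3). They were found for all 45141 probe sets, with other arrays within 0.0001 of a whole number and recomputed scores within 1.4e-13 of the deposited ones. Tested on simulated data, 999 of 1000 probe sets were recovered exactly.

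Log2 signals of the 45037 non-control probe sets were fitted by lmFit and eBayes of limma 3.58.1 (R 4.3.3), with 1 mean per population and no block, a step tested on simulated data. Tests are two-sided, with Benjamini-Hochberg adjustment over all probe sets and a threshold of 0.05. Probe sets were named by the platform's table (28898 with 1 gene symbol, 551 with several and 15588 with none). Listed genes are read by their probe set with the highest mean. Pairs of R-spondins were compared by an exact permutation test.

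Per the labels, each mouse gave all 4 populations, so replicate numbers pair the arrays. Once population means were removed, arrays of 1 mouse had a mean correlation of 0.241 (per mouse 0.466, -0.0594, 0.447 and 0.109), against -0.0807 for different mice and populations. Log2 signals of arrays of the same population correlated at 0.968 to 0.994, and no pair of arrays was identical. Alternatives were mouse as a block, a filter on dim probe sets, 1 probe set per gene, scaling to hybridization controls, quantile normalization, a pseudocount of 100, a trended robust prior, the epithelium list mean as a covariate, and leaving out each mouse and each array.

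The members and lists were chosen with earlier results of these data known. Named genes are all probe sets of the group, all measured genes of receptor turnover, up to 3 members of each other pathway list with the largest called change in a comparison, the 3 genes most similar to each gene, and markers beside the gene they move with. Figures were drawn with matplotlib 3.10.9.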

Additional observations from a re-analysis of the deposited data

Results flagged for a closer look

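Of 40 groups of 4 arrays, 3 held an array far from the other 3 by Dixon's test, and chance flags about 1 in 20 groups. In Sca1- cells Rspo4 read 445 in mouse 3 and 491 to 499 in the other mice. In Sca1- cells Znrf3 1435608_PM_at read 1171 in mouse 1 and 1475 to 1515 in the others. In Sca1+ ZsGreen-negative cells Lgr4 1453765_PM_at read 300 in mouse 4 and 359 to 367 in the others. The 3 arrays belong to different mice.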

How the results depend on the processing

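The counts of called probe sets among the 10 moved with several choices, and the cause was not tested. Between ZsGreen-high and Sca1+ ZsGreen-negative cells the count was 2, and 1 when only probe sets above the highest control on at least 4 arrays were tested (the filter removes Rspo1 and Rspo2 from the test), 8 with scaling to hybridization controls and 0 with the epithelium covariate. Between ZsGreen-dim and Sca1+ ZsGreen-negative cells it was 1, with mouse as a block (replicate block) 2, under the filter 0, and 0 to 1 when a mouse or array was left out. Between ZsGreen-high and ZsGreen-dim cells it was 0, with the replicate block 1, with hybridization scaling 3, and 0 to 1 with arrays left out. Between Sca1+ and Sca1- ZsGreen-negative cells it was 1, and 0 under the filter. Between ZsGreen-high and Sca1- cells it was 2, with hybridization scaling 6, with the covariate 0, and 1 to 4 with arrays left out. Between ZsGreen-dim and Sca1- cells it was 2, with 1 probe set per gene 1, with hybridization scaling 0, with the covariate 1, and 0 to 3 with arrays left out. The F test called 3, with hybridization scaling 7 and with the covariate 1. The replicate block changed no other count of the 10 by over 1.5 times. The pairs of R-spondins gave 0 calls under the alternatives, which says nothing about stability, since so few arrays leave almost no room for a call.

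Scaling to hybridization controls moved the median of all probe sets by 0.38 (ZsGreen-high minus Sca1+ ZsGreen-negative), 0.32 (ZsGreen-high minus ZsGreen-dim), 0.43 (ZsGreen-high minus Sca1-) and 0.12 (ZsGreen-dim minus Sca1-), and by less than 0.1 in the other 2 comparisons. In the first of these it called 29207 probe sets higher and 1700 lower, against 6857 and 4955 without it. That common shift turned the sign of many values. Of these, 5 passed the threshold in 1 of the 2 fits, and all 5 stay below 0 relative to the median of all probe sets. Between ZsGreen-high and Sca1+ ZsGreen-negative cells they were Rspo2 (to 0.32), Rspo3 1443187_PM_at (0.31), Rspo4 (0.33) and Lgr4 1453765_PM_at (0.29). Between ZsGreen-high and Sca1- cells it was Rspo4 (to 0.18). The other values that changed sign passed in neither fit.

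Across all alternatives, called values stayed called in the same direction in 190 cases, lost the call in 29 and reversed in 1. Uncalled values stayed so in 1402 cases, became called with the same sign in 24 and with the opposite sign in 4. Rspo1 stayed higher in Sca1+ than in Sca1- ZsGreen-negative cells in 27 of 27 alternatives (0.37 to 0.61, limma, adjusted p up to 0.0411), and Lgr4 lower in ZsGreen-high than in Sca1+ ZsGreen-negative cells in 27 of 28. The exception for Lgr4 was the epithelium covariate (-0.25, limma, adjusted p = 0.935). Most alternatives leave out a mouse or an array and reuse the remaining arrays. Whole-table counts without mouse 2 were 5281, 14, 1, 373, 8316 and 1463, against 11812, 420, 341, 1041, 14058 and 5246 with it, and 13479, 4718, 2211, 1560, 15402 and 8263 with the replicate block, for ZsGreen-high and ZsGreen-dim minus Sca1+ ZsGreen-negative, ZsGreen-high minus ZsGreen-dim, Sca1+ minus Sca1- ZsGreen-negative, and ZsGreen-high and ZsGreen-dim minus Sca1- cells. With the covariate they were 4, 85, 0, 1444, 516 and 3365.

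Signals near the nonspecific controls limit Rspo1, Rspo2, Lgr4 1453765_PM_at and part of Rspo3 and Rspo4. Whether background compresses their differences was not tested. Rspo2 was at array background in every population and passed in no comparison of the main fit. At this signal a difference of its transcripts was not resolved.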
